A study of Mus musculus with 12 samples.

Results

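The 10 genes examined here encode protein parts of plasma lipoproteins and the transfer protein that loads lipid onto Apob: Apoa1, Apoa2, Apoa4, Apoa5, Apob, Apoc1, Apoc3, Apoe, Apoh and Mttp. They were chosen by gene symbol from the 25239 genes of the deposited count table, and all 10 symbols were found. The libraries came from brain and liver of male C57BL/6J wild-type mice aged 24 months. The heat stress group was held at 40 °C for 3 hours a day over 15 days and the control group was not exposed. Each tissue had 3 control and 3 heat stress libraries, 12 in all, and every group shared strain, sex and age. Each library was made from a small piece of frozen tissue, and the brain region is not given in the sources used here. In such bulk tissue, fewer cells of a type and less RNA per cell cannot be told apart.

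Apolipoproteins wrap the lipid droplets that carry triglyceride and cholesterol in blood. Apob is the non-exchangeable scaffold of very low density lipoprotein (VLDL), and the microsomal triglyceride transfer protein Mttp adds lipid to it in the endoplasmic reticulum of hepatocytes and enterocytes. Apoa1 and Apoa2 are the main proteins of high density lipoprotein (HDL), and the small apolipoproteins of the C group move between particles. Hepatocytes make most plasma apolipoproteins, whereas in brain Apoe is made mainly by astrocytes and carries cholesterol between cells.

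On GRCm38, which is the mm10 build of the study, 4 members lie side by side on chromosome 9 in the GENCODE annotation. Apoa1 occupies chr9:46228580-46230466 on the plus strand, Apoc3 chr9:46232933-46235636 on the minus strand, Apoa4 chr9:46240696-46243459 on the plus strand and Apoa5 chr9:46268633-46271919 on the plus strand. Apoe, at chr7:19696109-19699188, and Apoc1, at chr7:19689481-19692660, are neighbours on the minus strand of chromosome 7. Apoa2 (chr1:171225054-171226379), Apob (chr12:7977648-8016835), Apoh (chr11:108343354-108414396) and Mttp (chr3:138089854-138144968, minus strand) each lie alone. Merged exons span from 537 bases in Apoa2 to 13934 bases in Apob. Exons of Mttp overlap those of Trmt10a over 457 bases on the opposite strand, and exons of Apoh overlap those of Prkca over 30 bases on the opposite strand. Also on the opposite strand, annotated transcripts for which no counts were used here overlap exons of Apoa4 (Gm10680 over 632 bases and Gm47528 over 634), Apoa5 (Gm47544 over 524) and Mttp (Gm43691 over 132). The libraries were stranded, but whether the counting used the strand is not stated, so these overlapping bases may carry reads of either gene.

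RefSeq promoter windows on GRCm38.p6 were given for 8 of the 10 members, all but Apoc1 and Apoc3. Of these, 4 are printed: Apoa1, the member whose liver groups did not overlap, Apoa5 and Apoe, whose liver levels ran together, and Apob, whose levels ran against theirs. Each is the stretch of the window that precedes the annotated gene start, 5′ to 3′ on the gene's strand, and capitals mark a TATA box (TATAAA).
Apoa1, chr9:46228380-46228579, plus strand: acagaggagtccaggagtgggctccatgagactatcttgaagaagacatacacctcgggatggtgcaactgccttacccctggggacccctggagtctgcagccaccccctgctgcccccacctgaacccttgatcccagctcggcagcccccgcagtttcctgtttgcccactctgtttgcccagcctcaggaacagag
Apoa5, chr9:46268383-46268632, plus strand: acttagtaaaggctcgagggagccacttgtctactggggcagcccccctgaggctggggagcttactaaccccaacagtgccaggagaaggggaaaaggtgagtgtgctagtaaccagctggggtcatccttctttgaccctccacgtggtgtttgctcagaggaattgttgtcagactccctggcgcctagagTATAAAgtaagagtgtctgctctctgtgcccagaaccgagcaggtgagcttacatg
Apoe, chr7:19699189-19699438, minus strand: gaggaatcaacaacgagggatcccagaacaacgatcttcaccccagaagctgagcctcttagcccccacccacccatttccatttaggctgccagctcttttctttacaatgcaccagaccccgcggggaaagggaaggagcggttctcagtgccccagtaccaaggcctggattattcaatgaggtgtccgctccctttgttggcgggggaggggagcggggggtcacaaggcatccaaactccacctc
Apob, chr12:7977427-7977647, plus strand: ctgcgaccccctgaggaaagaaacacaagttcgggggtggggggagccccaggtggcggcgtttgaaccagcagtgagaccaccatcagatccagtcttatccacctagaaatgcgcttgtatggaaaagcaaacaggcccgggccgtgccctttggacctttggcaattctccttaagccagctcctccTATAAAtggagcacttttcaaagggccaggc

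The TATAAA of Apob lies 31 bases before the gene start, and that of Apoa5 56 bases before it. That of Apoa2, whose window is not printed, lies much farther away, 212 bases before the start. On either strand of the 250 bases before the start, TATAAA was found in 3 of the 8 members (Apoa2, Apoa5 and Apob) and in 12.37% of 32851 windows of that length. AGGTCA, the half-site of many nuclear receptors, was found in 1 of the 8 members (Apoh) and in 14.02% of the windows. Of the letters CAAAGTCCA and CAAAGGTCA, cores of sites of the liver factor HNF4, neither was found in these windows of the 8 members, and they occurred in 0.3835% and 0.4262% of all windows. A match is a description of the letters and not a measured site.

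The libraries held between 10466198 and 15609040 counts. Hepatocyte markers were abundant in every liver library, with a summed level between 72227 and 119970 CPM (read counts scaled to 1000000 per library with TMM factors), although 1 of the 10, Ass1, had only between 11 and 21 counts. The liver libraries were not alike in other respects. Skeletal muscle markers summed to 431 CPM in control 1 and 2431 CPM in heat stress 2 against 1.21 to 7.49 CPM in the other liver libraries, and neural markers to 58.5 CPM in control 1 against 16.5 to 25.9 CPM in the others. The column names of control 2, heat stress 1 and heat stress 3 carry the suffix 2nd, which the sources used here do not explain. Adipocyte markers also differed, since Adipoq was counted 48 times and Cfd 149 times in heat stress 2 against 0 to 3 and 7 to 49 times in the other liver libraries. The summed level of the 5 adipocyte markers was 41.4 CPM in heat stress 2 and 11.8 to 31.6 CPM in the others. The liver fit was therefore repeated without control 1 and heat stress 2, and with the suffix as a covariate, both chosen after seeing the data.

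In control liver the members spanned a wide range of levels. Per kilobase of merged exon, Apoa2 was the highest, at 20244 ± 4363 CPM per kilobase (SD, n = 3). Apoc1 (9404 ± 3232), Apoe (7123 ± 2655) and Apoa1 (5389 ± 594) followed on the same scale, and the control libraries of Apoc1 and Apoe, and of Apoe and Apoa1, overlapped. Apoc3 (2137 ± 138), Apoh (1333 ± 204), Apoa5 (445 ± 96.1) and Apob (327 ± 51.0) came next in an order in which neighbours did not overlap. Apoa4 (45.5 ± 20.0) and Mttp (33.5 ± 8.76) were the lowest, and their control libraries overlapped. The 10 genes together took between 4.74% and 5.32% of all counts in control liver and between 5.12% and 6.09% in heat stress liver, so their summed share overlapped between the groups.

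Whether heat stress changed these transcripts in liver was asked by comparing the 3 heat stress with the 3 control libraries. Apoa1 was the only member whose groups did not overlap, and with all 6 libraries and no covariate it had the largest fitted difference of the members. In control liver its levels were 7444, 5989 and 6549 CPM in replicates 1, 2 and 3, and in heat stress liver they were 8239, 8188 and 11725 CPM. All heat stress libraries lay above all control libraries, and replicate 3 stood highest. The fitted log2 fold change was 0.49 (SE 0.23, 95% interval -0.015 to 1.00), and edgeR's quasi-likelihood test gave an adjusted p of 0.863 over the 12296 genes tested. Without heat stress replicate 3 the log2 fold change of Apoa1 was 0.29, and edgeR gave an adjusted p of 1.00.

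The other HDL protein, Apoa2, did not follow Apoa1. It stood at 9451, 13575 and 9587 CPM in control and at 11719, 8432 and 13125 CPM in heat stress liver. The highest of the 6 values was a control and the lowest a heat stress library, and the log2 fold change was 0.029 (SE 0.25, 95% interval -0.53 to 0.59). Apoa4, which rides on HDL and on intestinal particles, read 124, 64.4 and 58.8 CPM in control and 86.8, 111 and 135 CPM in heat stress liver. Control 1 stood far above the other controls and within the range of the heat stress group. The log2 fold change of Apoa4 was 0.42 (SE 0.29), and edgeR gave an adjusted p of 0.936. It was above that of Apoa1 without control 1 (0.83 against 0.57) and with the suffix as a covariate (0.53 against 0.48). It was lower, and below that of Apoa1, without control 2 (0.27 against 0.42), control 3 (0.23 against 0.48) or heat stress 3 (0.24 against 0.29).

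The VLDL scaffold Apob and its lipid-loading partner Mttp were the members with fitted changes below 0. Apob stood at 3754, 5086 and 4847 CPM in control and at 4316, 3664 and 4414 CPM in heat stress liver, a log2 fold change of -0.14 (SE 0.21, 95% interval -0.62 to 0.33). Mttp stood at 258, 150 and 216 CPM in control and at 175, 201 and 186 CPM in heat stress liver, a log2 fold change of -0.15 (SE 0.22, 95% interval -0.64 to 0.34). For both genes the heat stress libraries lay inside or close to the spread of the controls. The direction of Mttp was not stable, since the log2 fold change was 0.018 without control 1 and 0.013 with the suffix as a covariate.

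None of the genes for proteins that regulate the clearance of triglyceride-rich particles had groups that separated. Apoa5, an activator of lipoprotein lipase, read 1402, 968 and 999 CPM in control and 1148, 1411 and 1440 CPM in heat stress liver (log2 fold change 0.25, SE 0.22). Apoc3, an inhibitor of lipoprotein lipase and of particle uptake, read 2247, 2248 and 2006 CPM in control and 2503, 1867 and 2492 CPM in heat stress liver (log2 fold change 0.078, SE 0.21). Apoc1, a small inhibitor of receptor uptake, read 4832, 9585 and 6573 CPM in control and 8672, 5019 and 8675 CPM in heat stress liver (log2 fold change 0.092, SE 0.31). In Apoc3 and Apoc1 the lowest heat stress value, in replicate 2, lay below or near the lowest control.

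Apoe, the ligand through which the LDL receptor family takes up remnant particles, read 21598, 10707 and 13383 CPM in control liver and 13691, 19552 and 20833 CPM in heat stress liver. Control 1 held the highest value of all 6 libraries, and the groups overlapped over most of their range. The log2 fold change of Apoe was 0.24 (SE 0.30, 95% interval -0.42 to 0.91), and edgeR gave an adjusted p of 0.960. Macrophages also make Apoe, and all 10 macrophage and Kupffer cell markers had fitted changes above 0, of which Marco had an unadjusted edgeR p under 0.05. Their summed level was 195 to 307 CPM in control and 253 to 433 CPM in heat stress liver. The highest sum was in heat stress 1, which had the lowest Apoe level of the heat stress libraries, and the part of macrophages in the Apoe values was not tested. Apoh, a phospholipid-binding plasma glycoprotein, read 2486, 1851 and 2037 CPM in control and 1969, 2107 and 2528 CPM in heat stress liver, a log2 fold change of 0.051 (SE 0.21).

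**Figure D1:**
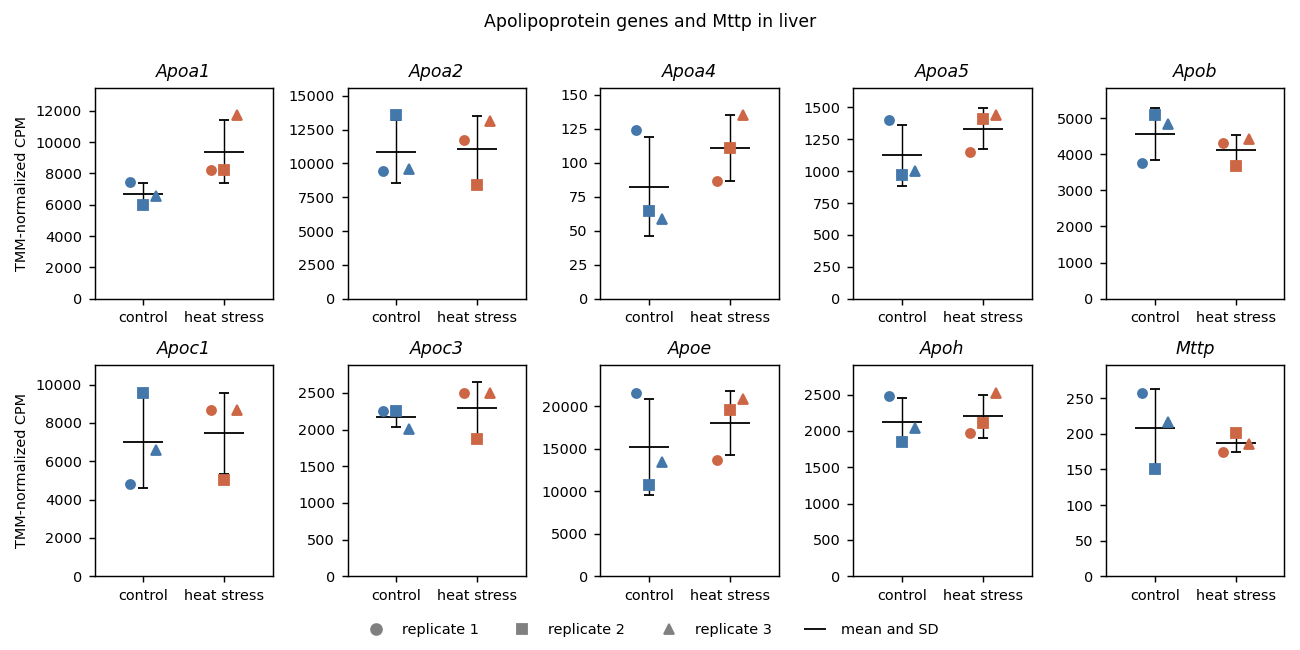
TMM-normalized CPM of each member (vertical axes, from 0) in the 3 control and 3 heat stress liver libraries, with symbols for replicates and a bar for the group mean with its SD. Only for Apoa1 do all heat stress points lie above all control points, from 8188 against at most 7444 CPM.

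Counted together, 0 of the 10 members passed an adjusted p of 0.05 in liver with edgeR, where 0% of the 12296 genes did, and 0 passed an unadjusted p of 0.05, where 5.84% of genes did. DESeq2 also called 0 members after adjustment, against 0.537% of genes, and 1 without it, Apoa1 (adjusted p = 0.776), against 5.27% of genes. Groups that did not overlap were found for 1 of the 10 members and for 11.1% of all genes tested. The fitted changes were positive for 8 members and negative for 2, with a median of 0.085 on the log2 scale, and the median of all genes tested was 0.011. Standard errors of the members lay between 0.21 and 0.31.

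**Figure D2:**
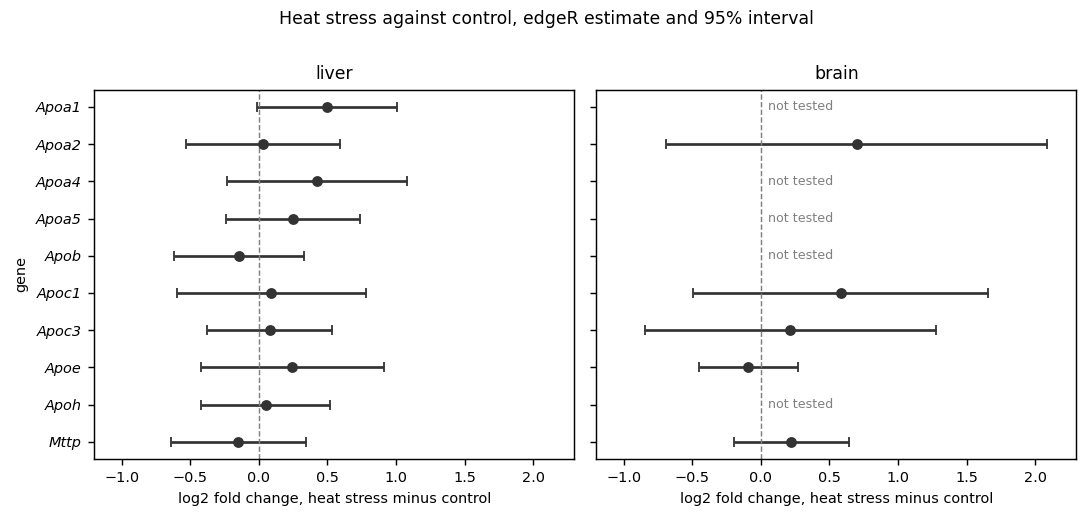
Log2 fold change of heat stress minus control (horizontal axis) for each member (vertical axis) in liver and brain, with edgeR's 95% interval. All intervals drawn include 0. In liver that of Apoa1 reaches down to -0.015, and 5 members are not tested in brain.

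The call for some members depended on which liver libraries were compared. Without control 1 alone, 3 of the 10 members had an unadjusted edgeR p under 0.05, where 12.9% of genes did. These were Apoa1 (log2 fold change 0.57), Apoa4 (0.83) and Apoe (0.57), with edgeR adjusted p-values of 0.361, 0.156 and 0.383, so that 0 members passed after adjustment, against 0.2% of genes. The log2 fold change of Apoe was 0.043 without control 2 alone and 0.11 without heat stress 3 alone. Without control 1 and heat stress 2, 2 members had an unadjusted p under 0.05, where 10.4% of genes did. Apoa4 then had a log2 fold change of 0.83 (SE 0.21, edgeR adjusted p = 0.0651) and Apoa1 one of 0.66 (SE 0.26, edgeR adjusted p = 0.337). Again 0 members passed after adjustment, and 0.662% of genes did. The part of the muscle transcripts in these values was not tested.

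Across the 6 liver libraries the members fell into sets that varied together. Apoa4 and Apoa5, neighbours on chromosome 9, had a Pearson correlation of log2 CPM of 0.977, and Apoe, on chromosome 7, had 0.965 with Apoa5 and 0.919 with Apoa4. Apoh joined this set, with 0.903 against Apoe. Apoa1 ran with the same genes less closely, at 0.789 with Apoa4, 0.758 with Apoa5, 0.686 with Apoe and 0.689 with Apoh. Apoa2 and Apoc1, which lie on different chromosomes, correlated at 0.932. Apob ran against the first set, at -0.840 with Apoa5, -0.815 with Apoe, -0.759 with Apoa4 and, less closely, -0.526 with Apoh, and Mttp ran against Apoc1, at -0.855. Apoe and its chromosomal neighbour Apoc1 correlated at -0.627, and Apoa1 and its neighbour Apoc3 at 0.433. These are descriptions over 6 libraries that share their normalization, and no p is given.

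**Figure D3:**
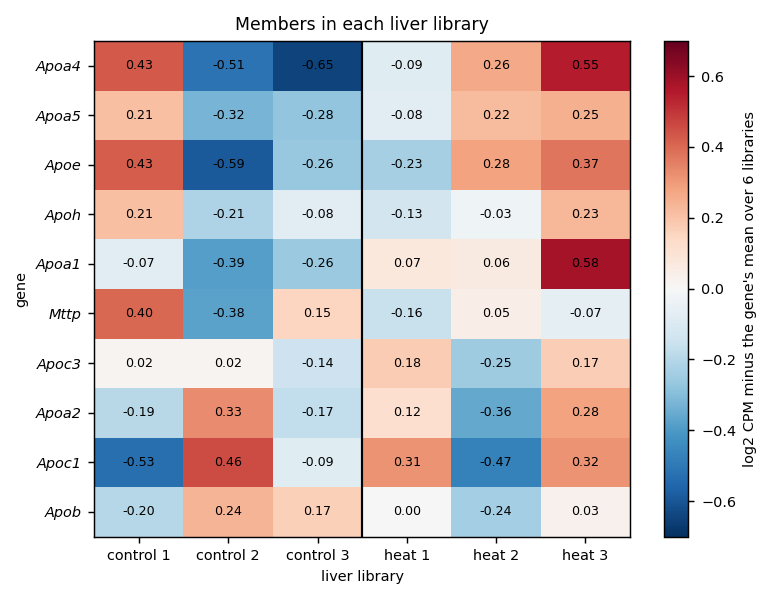
Log2 CPM of each member (rows) in each liver library (columns), minus the gene's mean over the 6 libraries, in colour and as printed values. Apoa4, Apoa5 and Apoe are raised in control 1, heat stress 2 and heat stress 3, and Apoa2, Apoc1 and Apob are all lowered in control 1 and heat stress 2.

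Raised Apoe with lowered Apoc1 was seen in control 1 and heat stress 2, the libraries with muscle transcripts, although they belong to different groups. Relative to the mean of the 6 libraries, Apoe was 0.43 and 0.28 higher on the log2 scale in these libraries, and Apoc1 was lower, at -0.53 and -0.47. Raised Apoe was not particular to them, since heat stress 3, with a muscle marker sum of 7.49 CPM, had Apoe at 0.37, Apoa4 at 0.55 and Apoa5 at 0.25, each above heat stress 2, together with raised Apoc1, at 0.32. Control 2 had the opposite profile, with Apoe at -0.59 and Apoc1 at 0.46. The summed hepatocyte markers varied much as Apoe did, so this pattern was not particular to the members. They stood at 119970, 72227 and 90709 CPM in control 1, 2 and 3. In heat stress 1, 2 and 3 they stood at 88635, 106868 and 117225 CPM. Not every marker followed, since Cps1 was lowest in heat stress 3, at 2104 CPM. The part of hepatocyte content in the members' values was not tested.

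The suffix in the column names separated some members more clearly than heat stress did. In the 3 libraries with the suffix Apoc1 lay between 8672 and 9585 CPM, and in the 3 without it between 4832 and 6573 CPM. Apoa2 lay between 11719 and 13575 CPM with the suffix and between 8432 and 9587 CPM without it. Mttp lay between 150 and 186 CPM with it and between 201 and 258 CPM without it. For these genes the libraries did not overlap by suffix. Apoc3 was also apart, but only just, since its lowest library with the suffix (2248 CPM) and its highest without (2247 CPM) were nearly equal. In all, 4 of the 10 members were apart by suffix, 3 higher and 1 lower with it, where 14.2% of the genes tested in liver were apart. This split was noticed in these values and was not tested.

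Transcript length moved with the suffix. Apoa2, Apoc1 and Apoc3, the members that were higher with the suffix, have the shortest merged exons of the 10, at 537, 744 and 1014 bases, whereas those of Mttp span 6206 bases. Apob is longer still and its libraries overlapped by suffix. Over all genes tested in liver with a length, the median difference in log2 CPM of libraries with minus those without the suffix was 0.43 for 304 genes of at most 1000 bases, 0.044 for 6650 longer genes of up to 5000 bases and -0.092 for 5180 genes over 5000 bases. The medians of heat stress minus control in the same classes were 0.027, 0.041 and -0.0063, a narrower range than by suffix. The part of length in the members' values was not tested.

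With the suffix as a covariate, 0 members passed an edgeR adjusted p of 0.05, where 0.0488% of genes did. The log2 fold change of Apoa4 was 0.53 (SE 0.32, edgeR adjusted p = 0.663), that of Apoa1 0.48 (SE 0.24, edgeR adjusted p = 0.608), that of Apoe 0.42 and that of Apoa5 0.33. Those of Apoa2 (-0.15), Apoc1 (-0.16) and Apoc3 (-0.018) turned below 0. Means were also compared within libraries with the suffix (1 control and 2 heat stress) and within those without it (2 control and 1 heat stress), as a description, since a single library stands for 1 group in each. The log2 ratio of heat stress to control was above 0 in both subsets for Apoa1 (0.74 with and 0.23 without the suffix), Apoa4 (0.78 and 0.27), Apoa5 (0.42 and 0.23) and Apoe (0.69 and 0.16). It was below 0 in both for Apoa2 (-0.13 and -0.17), Apoc1 (-0.14 and -0.18) and Apob (-0.22 and -0.23), of which Apoa2 and Apoc1 had values above 0 over all 6 libraries. For Apoc3 (0.15 and -0.19), Apoh (0.28 and -0.10) and Mttp (0.27 and -0.24) the subsets had opposite signs.

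The 5 liver genes outside the gene lists whose log2 CPM followed the mean profile of the members most closely over the 6 libraries were Ddx21 (r = 0.997), Actb (0.993), Ncoa1 (0.992), Prpsap1 (0.987) and Ilvbl (0.979). The mean profile itself was highest in heat stress 3 and lowest in control 3. These genes were picked as the highest of all tested liver genes outside the lists. Over only 6 libraries such a pick yields values near 1 by selection alone, so they are a description. The profile also averages members that ran against each other, such as Apob and Apoa5 (-0.840) or Mttp and Apoc1 (-0.855). Likeness to it is therefore not likeness to each member.

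In brain, Apoe was the one member at a high level. Per kilobase of merged exon it stood at 889 ± 126 CPM in control brain (SD, n = 3), and the next members on that scale were Apoc1 (3.51 ± 2.05) and Mttp (2.57 ± 0.59). Apoe was counted between 17843 and 25927 times per library, and its mean CPM by total counts in liver was 9.02 times that in brain. Mttp was counted between 173 and 225 times per brain library, with a liver to brain ratio of 11.5. Mttp shares 457 bases of exon with Trmt10a, which was counted between 101 and 130 times in the same libraries.

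The other 8 members were near the limit of counting in brain. Apoc1 was counted between 13 and 55 times per library, Apoa2 between 7 and 35, Apoc3 between 6 and 18, Apoa1 between 5 and 22 and Apoh between 4 and 15. Apob was counted between 1 and 7 times and Apoa5 between 0 and 3 times. Apoa4 had 0 counts in all 6 brain libraries, which allows up to 0.284 CPM in the shallowest and 0.206 CPM in the deepest of them, a limit of 3 counts that covers counting error only. Liver levels of Apoa1, Apoa2 and Apob were 8329, 7795 and 16479 times their brain levels, and that of albumin (Alb), the main secreted protein of hepatocytes, was 20351 times.

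**Figure D4:**
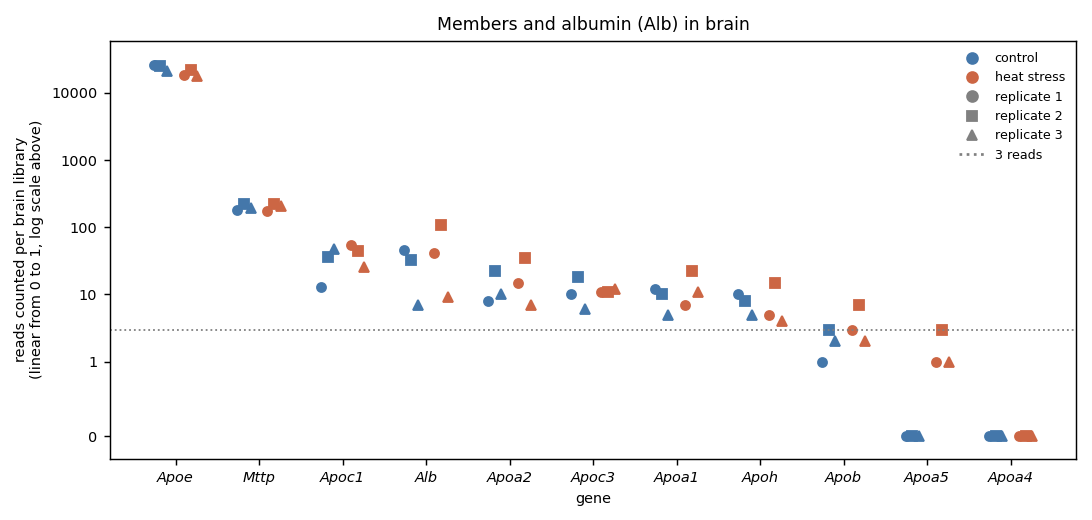
Reads counted per brain library (vertical axis, linear from 0 to 1 and logarithmic above) for each member and for Alb (horizontal axis), with colours for groups and symbols for replicates. Apoe stands at 17843 reads or more and Mttp between 173 and 225, and heat stress 2 is highest for Alb, Apoa1, Apoa2, Apob and Apoh.

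Among the near-absent members, 1 brain library stood out. Heat stress 2 had the highest count of Apoa1 (22), Apoa2 (35), Apob (7) and Apoh (15), and of Alb (107, against 7 to 46 in the others). Apoc1 was instead highest in heat stress 1 (55, against 45 in heat stress 2) and Apoc3 in control 2 (18, against 11 in heat stress 2). The summed level of the 10 hepatocyte markers was 15.1 CPM in heat stress 2 and between 2.35 and 7.02 CPM in the others. The part of liver-derived RNA in these counts was not tested. Without this library the log2 fold change of Apoa2 turned from 0.70 to -0.057.

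Whether heat stress changed the members in brain could be tested for the 5 with enough counts. Apoe stood at 1778, 2210 and 1714 CPM in control brain and at 1727, 1941 and 1685 CPM in heat stress brain. The groups overlapped almost fully, with a log2 fold change of -0.091 (SE 0.16, 95% interval -0.45 to 0.27), and edgeR gave an adjusted p of 0.775 over 14806 genes. The sign of Apoe was not fixed, since without control 2 it was 0.027. Astrocyte markers summed to between 5683 and 7792 CPM in control and between 5496 and 6634 CPM in heat stress brain, and microglial markers to between 487 and 648 CPM and between 544 and 620 CPM, so these cell types' summed levels overlapped as well. At an unadjusted edgeR p under 0.05, 1 of the 10 astrocyte markers was lower, Aldh1l1. Of the 10 microglial markers 2 were higher, Aif1 and P2ry12, and 1 was lower, Csf1r, where 20.1% of all genes had such a p.

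Mttp stood at 12.3, 19.6 and 15.8 CPM in control and at 16.0, 19.7 and 19.8 CPM in heat stress brain, a log2 fold change of 0.22 (SE 0.19, 95% interval -0.20 to 0.64). Apoc1 stood at 0.891, 3.14 and 3.80 CPM in control and at 5.08, 4.03 and 2.46 CPM in heat stress brain, a log2 fold change of 0.58 (SE 0.48), and edgeR gave an adjusted p of 0.513, the lowest of the members in brain. Apoc3 (0.21, SE 0.47) and Apoa2 (0.70, SE 0.62) rested on even fewer reads. In all of these genes the groups overlapped. With 1 brain library left out, the log2 fold change ranged from 0.15 to 0.97 for Apoc1 and from 0.064 to 0.39 for Mttp.

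Of the 5 members tested in brain, 0 passed an adjusted p of 0.05 with edgeR, where 0% of the 14806 genes did, and 0 passed an unadjusted p of 0.05, where 20.1% of genes did. With DESeq2, 0 passed after adjustment, against 3.71% of genes, and 0 without it, against 18.5%, although DESeq2 gave no adjusted p for Apoa2, Apoc1 and Apoc3. None of the 5 had groups that did not overlap, which 24.9% of genes had. The untested members had too few reads for a fold, and for Apoa5 the difference between 0 counts in every control and 1, 3 and 1 counts in heat stress lay at or under the limit of 3 counts.

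A test of whether the effect of heat stress differed between the tissues used all 12 libraries. By the methods each group had 3 mice, from which both tissues were taken, so brain and liver libraries share animals, while this test treats them as independent. Which brain and liver libraries belong to 1 mouse is not stated. The difference, liver minus brain, was 0.30 on the log2 scale for Apoe (SE 0.45, edgeR adjusted p = 0.845) and -0.40 for Mttp (SE 0.33, edgeR adjusted p = 0.677). With same-numbered brain and liver libraries of a group taken as 1 mouse, the difference was 0.36 for Apoe (edgeR adjusted p = 0.833) and -0.36 for Mttp (edgeR adjusted p = 0.734), and 0 members passed. With edgeR, 0 of the 10 members passed an adjusted p of 0.05, where 0.00632% of the 15824 genes did. An unadjusted p under 0.05 was reached by 1 member, Apoa5 (edgeR adjusted p = 0.516), and by 9.64% of genes, and that value rests on at most 3 brain reads per library. For the 8 members with few brain reads the test rests on those reads.

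Lists of genes that act with the members were read from the same liver fit, in which 5.84% of all genes had an unadjusted edgeR p under 0.05. Of other apolipoproteins and HDL proteins, 11 of 12 were tested, 4 with positive and 7 with negative fitted changes (median -0.11). Among them 1 had an unadjusted p under 0.05, Apom, which carries sphingosine-1-phosphate on HDL. Apom stood at 138, 79.4 and 90.1 CPM in control and at 140, 144 and 207 CPM in heat stress liver. All heat stress libraries were above all control libraries, as for Apoa1, with a log2 fold change of 0.68 (SE 0.25), and edgeR gave an adjusted p of 0.799. The log2 fold change was 0.46 without heat stress 3 (edgeR adjusted p = 1.00) and 0.73 with the suffix as a covariate (edgeR adjusted p = 0.554). Without control 1 and heat stress 2 it was 1.02, with an edgeR adjusted p of 0.0195, a setting in which 0.662% of genes passed. Apoc2, the cofactor of lipoprotein lipase, had 72 to 148 counts per liver library beside 8079 to 12093 for its neighbour Apoc4. The annotation marks both as overlapping the readthrough gene Gm44805, and how shared reads were counted is not stated, so the level of Apoc2 is uncertain.

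Of genes for ApoB editing, particle assembly and secretion, 22 of 22 were tested in liver, 12 with positive and 10 with negative fitted changes (median 0.053). Soat2, which makes the cholesteryl esters of VLDL, was the 1 gene with an unadjusted p under 0.05, with control levels of 32.2 to 37.7 CPM and heat stress levels of 39.2 to 61.7 CPM (log2 fold change 0.48, SE 0.20, edgeR adjusted p = 0.846). Of receptors, lipases and remodelling factors, 21 of 22 were tested, 13 positive and 8 negative (median 0.039), and 4 had an unadjusted p under 0.05. Angptl8, an inhibitor of lipoprotein lipase induced by feeding, stood at 275, 307 and 86.7 CPM in control and at 120, 51.7 and 103 CPM in heat stress liver (log2 fold change -1.28, SE 0.45, edgeR adjusted p = 0.779). Lpl, the lipase that acts on Apob particles in muscle and fat, stood at 22.9, 15.5 and 15.7 CPM in control and at 30.7, 77.3 and 19.6 CPM in heat stress liver (log2 fold change 1.24, SE 0.44, edgeR adjusted p = 0.779). The highest Lpl value was in heat stress 2, the library with the most muscle transcripts and the highest Adipoq count, whose part in it was not tested. Macrophages also make Lpl. Their markers summed to 282 CPM in heat stress 2 and to 433 CPM in heat stress 1, against 195 to 307 CPM in the controls. Heat stress 1 had the next highest Lpl value, and the part of macrophages in the Lpl values was not tested. Without heat stress 2 the log2 fold change of Lpl was 0.48 (edgeR adjusted p = 1.00), and without control 1 and heat stress 2 it was 0.68.

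Mylip, which targets the LDL receptor for degradation, had control levels of 4.84 to 7.46 CPM and heat stress levels of 8.36 to 9.83 CPM (log2 fold change 0.53, SE 0.22, edgeR adjusted p = 0.846). Lipg, an endothelial lipase that acts on HDL, had control levels of 16.8 to 23.4 CPM and heat stress levels of 24.4 to 29.3 CPM (log2 fold change 0.42, SE 0.18, edgeR adjusted p = 0.846). Of transcription regulators, 21 of 22 were tested in liver, 9 positive and 12 negative (median -0.029), and 1 had an unadjusted p under 0.05. This was Nr1d1, a clock repressor, with control levels of 44.5 to 70.0 CPM and heat stress levels of 59.6 to 115 CPM (log2 fold change 0.61, SE 0.26, edgeR adjusted p = 0.846). With edgeR and with DESeq2, 0 genes of the 4 lists passed an adjusted p of 0.05 in liver. The counts at an unadjusted p by DESeq2 were 1, 1, 2 and 1 in the order of the lists.

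The other settings moved several of these liver values. Without control 1 and heat stress 2, Angptl8 had a log2 fold change of -0.82 (edgeR adjusted p = 0.804), Mylip one of 0.40 (edgeR adjusted p = 0.633) and Lipg one of 0.32 (edgeR adjusted p = 0.650). These 3 no longer had an unadjusted p under 0.05, whereas Soat2 (0.51) and Nr1d1 (0.50) did. In that setting 11 genes were added, so that 15 of the 76 list genes tested, 19.7%, had an unadjusted p under 0.05, where 10.4% of all genes did. Of the added genes 7 were higher in heat stress liver (Clu, Lcat, Pltp, Cideb, Gpihbp1, Scarb1 and Ppara) and 4 were lower (Pon3, Vldlr, Mlxipl and Prox1), and among the 15 Apom alone passed after adjustment. With the suffix as a covariate, Soat2 had a log2 fold change of 0.41 (edgeR adjusted p = 0.607) and Mylip one of 0.49 (edgeR adjusted p = 0.601), and neither had an unadjusted p under 0.05, whereas Angptl8 (-1.63), Lpl (1.37), Lipg (0.52) and Nr1d1 (0.79) did. Pltp and Ppara were added, for 7 of 75 genes or 9.33%, where 8.51% of all genes had one. With 1 library left out at a time, the 7 genes kept their sign, and each had an unadjusted p above 0.05 in at least 1 of the 6 fits. The log2 fold change of Soat2 was 0.24 without heat stress 3, and that of Nr1d1 was 0.35 without heat stress 2. Groups that did not overlap were found for 7 of the 75 genes tested in the 4 lists, 9.33%, where 11.1% of all genes had them. Apom, Soat2, Mylip and Lipg were higher in heat stress liver. Pon1, A1cf and Sec23a, named after their values were seen, were lower, with Pon1, an HDL esterase, at 1075 to 1228 CPM in control and at 991 to 1045 CPM in heat stress liver.

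The same lists were read in brain, where 20.1% of all genes had an unadjusted edgeR p under 0.05. Of receptors, lipases and remodelling factors, 18 of 22 were tested, 6 positive and 12 negative (median -0.19), and 4 had an unadjusted p under 0.05. Lrp1, a large receptor that takes up Apoe particles, stood at 512, 378 and 363 CPM in control and at 254, 222 and 244 CPM in heat stress brain. The groups were well apart, with a log2 fold change of -0.80 (SE 0.16), and the adjusted p was 0.170 with edgeR and 0.00195 with DESeq2. Sorl1, a sorting receptor that also binds Apoe, stood at 330, 201 and 220 CPM in control and at 165, 128 and 178 CPM in heat stress brain (log2 fold change -0.68, SE 0.20, adjusted p 0.170 with edgeR and 0.0355 with DESeq2). With 1 brain library left out, the log2 fold change of Sorl1 ranged from -0.82 to -0.43. Lrp8, the Apoe receptor 2 of neurons, had a log2 fold change of -0.37 (SE 0.13, edgeR adjusted p = 0.182) and groups that did not overlap. Abca7, a lipid exporter, had a log2 fold change of -0.74 (SE 0.26, edgeR adjusted p = 0.190), and its groups overlapped.

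Of other apolipoproteins and HDL proteins, 5 of 12 were tested in brain, 1 positive and 4 negative (median -0.35), and 2 had an unadjusted p under 0.05. Clu (apolipoprotein J), a secreted chaperone, stood at 894, 860 and 698 CPM in control and at 588, 700 and 641 CPM in heat stress brain (log2 fold change -0.35, SE 0.15, edgeR adjusted p = 0.237). Pltp, which transfers phospholipid between particles, stood at 96.5, 49.7 and 64.4 CPM in control and at 36.7, 50.2 and 34.3 CPM in heat stress brain (log2 fold change -0.80, SE 0.24, adjusted p 0.170 with edgeR and 0.0367 with DESeq2). The control and heat stress libraries of both genes overlapped at their edges.

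Of genes for assembly and secretion, 16 of 22 were tested in brain, 8 positive and 8 negative (median -0.042), and 3 had an unadjusted p under 0.05. These were Sar1b, a coat GTPase of large cargo (log2 fold change 0.48, SE 0.14, edgeR adjusted p = 0.170), Dgat2, a triglyceride synthase (0.37, SE 0.15, edgeR adjusted p = 0.223), and Sort1, a sorting receptor (-0.54, SE 0.19, edgeR adjusted p = 0.192). With 1 brain library left out, the log2 fold change ranged from 0.20 to 0.45 for Dgat2 and from -0.70 to -0.33 for Sort1. Of transcription regulators, 14 of 22 were tested, 3 positive and 11 negative (median -0.17), and 2 had an unadjusted p under 0.05. These were Srebf2 (-0.43, SE 0.13, edgeR adjusted p = 0.170) and Srebf1 (-0.28, SE 0.11, edgeR adjusted p = 0.206), the sterol and fatty acid synthesis regulators. Hnf4a, a main activator of the members in liver, had 0 counts in brain. With edgeR, 0 genes of the 4 lists passed an adjusted p of 0.05 in brain, and with DESeq2 3 of the 53 genes tested did, Lrp1, Sorl1 and Pltp, or 5.66%, where 3.71% of all genes did. Groups that did not overlap were found for 14 of the 53, or 26.4%, where 24.9% of all genes had them. Both shares lie near those of all genes. Choroid plexus markers moved in the same comparison, since 7 of the 10 were lower at an unadjusted p under 0.05 and their sum was 1810 to 3494 CPM in control and 532 to 1606 CPM in heat stress brain. The part of this tissue in the brain lists was not tested.

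**Figure D5:**
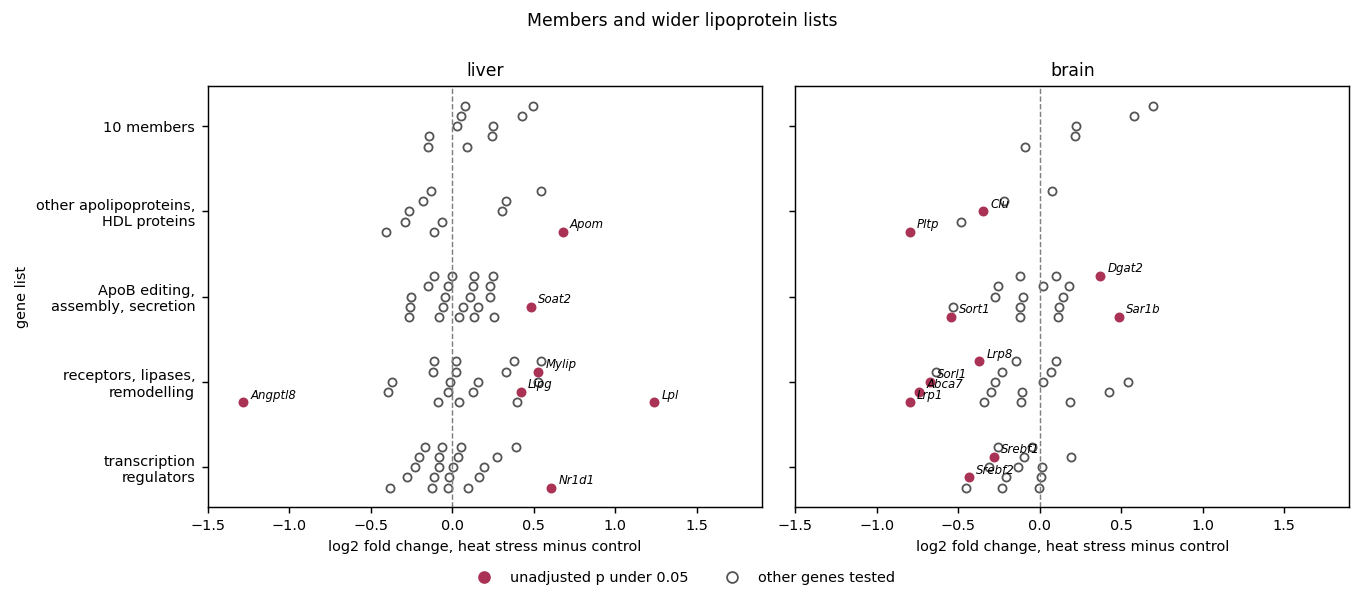
Log2 fold change of heat stress minus control (horizontal axis) of every tested gene of the 10 members and of the 4 wider lists (vertical axis), in liver and brain. Filled points have an unadjusted edgeR p under 0.05 and are named. The members have 0 in both tissues, the lists 7 in liver and 11 in brain.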

How the data were processed

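RNA of brain and liver from aged male mice was sequenced from oligo-dT enriched, stranded libraries, 3 per group and 12 in all. The authors deposited raw read counts per gene symbol. Their processing notes name FastQC 0.11.9, Trimmomatic 0.39, HISAT2 2.2.1, featureCounts of Subread 2.0.1, DESeq2 1.22.2 and mm10, while another passage of the methods describes Tophat2 and HTSeq counting. The deposited tables of fold changes and p-values, the authors' own comparisons, were not used.

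From the counts, heat stress was compared with control in each tissue by edgeR 4.0.16 in R 4.3.3 (quasi-likelihood test, robust, two-sided, TMM, filterByExpr at its settings of 10 counts and a total of 15, Benjamini-Hochberg adjustment over all genes tested). Genes with low counts, 5 members in brain among them, were not tested. A contrast of the 4 groups tested the difference between tissues. Standard errors were derived from the fold change and the F statistic. The tests judge each fold change against the spread between these libraries. The study's own tool, DESeq2 (here 1.42.0), was an alternative, beside other normalizations and filters, a replicate block and left-out replicates. Per-kilobase levels used merged exons of GENCODE M21 (GRCm38), which matched 24366 of 25239 symbols. Procedures were tested on simulated data in which 200 genes changed 2-fold. At an adjusted p under 0.05, edgeR recovered 72 of them in liver and 139 in brain, with 8 and 5 false calls. DESeq2 recovered 106 and 146, with 25 and 21 false calls. Changes of 2-fold were thus often missed in liver. The smallest two-sided exact permutation p for 3 against 3 is 0.1, so none is given. The members and lists were chosen with earlier results of these data known. All members are named. From each wider list, genes with an unadjusted p under 0.05 are named, at most the 6 with the smallest p per tissue. From the lists, 1 gene is not reported here and was left out of the counts. Likeness to the members' mean profile was ranked by Pearson correlation over the liver libraries.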

Additional observations from a re-analysis of the deposited data

How the results depend on the processing

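Of 309 values of named genes under other settings, 300 kept direction and side of the threshold, and of 222 with a replicate left out, 207 did. Reversed were Apoa2 in liver with total counts alone (-0.018) and, with the suffix as a covariate, Apoa2 (-0.15), Apoc1 (-0.16), Apoc3 (-0.018) and Mttp (0.013). Now past the threshold were Apom in liver without control 1 and heat stress 2, and Pltp, Lrp1 and Sorl1 in brain with DESeq2. With a replicate left out, log2 fold changes in liver ranged from -0.12 to 0.22 for Apoa2, -0.13 to 0.39 for Apoc1, -0.010 to 0.20 for Apoc3, -0.075 to 0.17 for Apoh and -0.34 to 0.018 for Mttp, and in brain from -0.057 to 1.35 for Apoa2, -0.080 to 0.81 for Apoc3 and -0.16 to 0.027 for Apoe. Other liver ranges were 0.29 to 0.58 for Apoa1, 0.23 to 0.83 for Apoa4 and 0.15 to 0.43 for Apoa5. Those of Apob and Apoe in liver were -0.28 to -0.058 and 0.043 to 0.57. No member passed an adjusted p of 0.05 under any setting run.

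Against 0 genes in liver at an adjusted p under 0.05, there were 3 with total counts alone, 2 with TMM without the members and the most abundant genes, 66 with DESeq2, 14 with all 12 libraries in a single fit, 8 with no filter, 2 with a stricter filter, 81 without control 1 and heat stress 2, 6 with the suffix as a covariate and 0 to 25 with a replicate left out. The 25 came without control 1. Liver members at an unadjusted p under 0.05 numbered 1 with DESeq2, 2 without control 1 and heat stress 2 and 0 to 3 with a replicate left out. Against 0 genes in brain, DESeq2 called 549. Brain members at an unadjusted p under 0.05 numbered 1 with all 12 libraries in a single fit and 1 with no filter, in both cases Apoa5, on 0 to 3 reads. Against 1 gene for the difference between tissues, there were 0 with RLE size factors, 0 with total counts alone, 43 with DESeq2, 0 with no filter, 7 without control 1 and heat stress 2 and 0 to 4 with a replicate left out, and the 1 member at an unadjusted p under 0.05 became 0 to 2. The cause was not tested, except that settings with fewer libraries or another filter change the genes tested.

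With the replicate number as a block, 1 gene passed in liver, 0 in brain and 0 for the difference between tissues, and 0 members in each. The block for the tissue difference is the mouse, taken as the same-numbered brain and liver library of a group. Same-numbered control and heat stress libraries deviated from their group means with correlations of -0.58, -0.51 and -0.089 in liver. In brain these were -0.29, 0.19 and -0.20. In liver, control 1 and heat stress 2, both with muscle transcripts, correlated at 0.55. Control 2 and heat stress 1, both with the suffix, correlated at 0.45. With 3 libraries per group, these values cannot decide whether the numbers pair control with heat stress. Same-numbered liver and brain libraries correlated at 0.35, 0.34 and 0.11 among controls and at 0.049, -0.20 and 0.037 with heat stress. The tissues share animals, but which numbers belong to 1 mouse is not stated. Depth limits the 8 members with at most 55 reads per brain library, of which 3 were tested in brain, with standard errors of up to 0.62 on the log2 scale, and 5 were not. In the fit of the difference between tissues the standard error of Apoa5 reached 1.19.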
